A study of Mus musculus with 6 samples.

Results

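In all, 6 genes were described that were higher in every liver library of fasted mice labelled CREBH knockout (CREBH-K.O) than in any wild-type library. These were Frmd5, Tcf24, Klhl33, Tox2, Sybu and Asic5. All but Asic5 were near absent in wild-type liver. They are 6 of the 55536 genes in the count tables and 6 of the 15589 that passed a filter on low counts. They were chosen by their normalised counts in these same 6 libraries, so their own differences between genotypes are given as a description, without a test. The data are read counts per gene from 3 WT and 3 CREBH-K.O liver samples, all collected after an overnight fast of 14 h. The labels give neither sex, age and strain nor how the knockout was made, and do not say that each sample came from its own mouse. For CREBH-K.O 2 and CREBH-K.O 3 they record that the file of first reads is lost.

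CREBH, the product of Creb3l3, is a basic leucine zipper transcription factor that is anchored in the endoplasmic reticulum membrane of hepatocytes and acts in the nucleus after it has been cut free. It binds sequences related to the cAMP response element and is best known in liver for genes of lipid and glucose metabolism during fasting. The 6 genes belong to 6 different families. Tcf24 (a basic helix-loop-helix factor) and Tox2 (a high mobility group box factor, studied mostly in lymphocytes) encode putative or known transcription regulators. Klhl33 encodes a Kelch-like protein, a family in which many members bring substrates to the CUL3 ubiquitin ligase. Frmd5 encodes a FERM domain protein of cell contacts that binds p120-catenin. Sybu encodes syntabulin, which couples vesicles and mitochondria to kinesin-1 in neurons. Asic5 encodes a sodium channel of the acid-sensing family that is opened by bile acids and is known from bile ducts and intestine.

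Each library had between 28106243 and 39288819 reads counted in genes. Creb3l3 itself was at 467, 496 and 495 CPM (read counts scaled to a common effective library size) in WT and at 57.4, 45.0 and 46.4 CPM in CREBH-K.O. Its log2 fold change, CREBH-K.O minus WT, was -3.29 ± 0.11 (SE), with an adjusted p of 3.00e-06 by the quasi-likelihood test of edgeR. Creb3l3 lies on chromosome 10, which holds none of the 6 genes. At a Benjamini-Hochberg adjusted p under 0.05 in edgeR's quasi-likelihood test, 609 of the 15589 genes were called higher and 1007 lower (3.91% and 6.46%). The share of higher genes among the calls was 37.7% when libraries were scaled by TMM and 52.8% when only their sizes were used. All 6 genes were among those called higher. Since this contrast chose them, nothing is read from that count.

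The sequences in front of annotated starts are shown because 6 genes with a common pattern invite a look for common letters. RefSeq promoters (GRCm38.p6) were on hand for 4 of the 6 genes: Frmd5, Klhl33, Tox2 and Asic5. Each line holds the 250 bases before 1 start, 5′ to 3′ on the gene's strand, with every match to a searched motif in capitals.
Frmd5, chr2:121807058-121807307, minus strand: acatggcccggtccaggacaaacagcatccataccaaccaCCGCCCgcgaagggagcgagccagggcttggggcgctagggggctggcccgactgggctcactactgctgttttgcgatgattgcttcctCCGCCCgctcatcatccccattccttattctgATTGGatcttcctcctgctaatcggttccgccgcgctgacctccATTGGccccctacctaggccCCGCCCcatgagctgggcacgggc
Klhl33, chr14:50897484-50897733, minus strand: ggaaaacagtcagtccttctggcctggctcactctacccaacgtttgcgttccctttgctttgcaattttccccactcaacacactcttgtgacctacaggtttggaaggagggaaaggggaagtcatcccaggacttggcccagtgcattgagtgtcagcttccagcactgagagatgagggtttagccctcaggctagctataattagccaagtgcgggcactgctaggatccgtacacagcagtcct
Tox2, chr2:163202877-163203126, plus strand: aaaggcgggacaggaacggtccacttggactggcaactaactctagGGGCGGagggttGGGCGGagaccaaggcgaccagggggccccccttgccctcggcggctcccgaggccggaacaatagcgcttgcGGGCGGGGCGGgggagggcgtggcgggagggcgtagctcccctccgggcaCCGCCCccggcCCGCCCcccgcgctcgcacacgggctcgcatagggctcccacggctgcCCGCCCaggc
Asic5, chr3:81996672-81996921, plus strand: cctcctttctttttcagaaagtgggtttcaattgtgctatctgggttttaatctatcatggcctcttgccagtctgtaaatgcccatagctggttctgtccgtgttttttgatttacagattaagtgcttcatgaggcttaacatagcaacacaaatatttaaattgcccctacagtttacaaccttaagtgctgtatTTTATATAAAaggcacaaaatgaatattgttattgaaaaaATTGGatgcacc

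The searched motifs, on both strands, were the cAMP response element TGACGTCA and its shorter form TGACG, the unfolded protein response element TGACGTGG, the C/EBP-ATF element TGATGNAA, the E box CACGTG, the CCAAT box, the GC box GGGCGG, the TATA box TATAAA and the direct repeat 1 of nuclear receptors. TGACG lies inside TGACGTCA and TGACGTGG, so those searches overlap. The 4 windows differ in kind. The Tox2 window was 75.2% G and C and carried 7 GC boxes, the Frmd5 window (63.2%) carried 3 GC boxes and 2 CCAAT boxes, and the Asic5 window (35.6%) carried TATA boxes on both strands and 1 CCAAT box. The Klhl33 window (52.4%) held none of the motifs. Among 32851 promoters of the same length, the GC box was found in 32.7%, the CCAAT box in 33.8% and the TATA box in 12.4%. The median content of G and C was 52.4%. The Asic5 start at 81996922 lies inside the annotated span of the gene, which begins with a transcript annotated as noncoding.

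No motif was common to the 4 printed windows. TGACGTCA, present in 1.55% of all promoters, was in none of the 9 annotated promoters of these 4 genes. The shorter TGACG, present in 17.8% of all promoters, was in 1 of the 9, which precedes an internal Tox2 start at 163204186. Nor was TGACGTGG (0.563% of all promoters), TGATGNAA (3.45%), CACGTG (6.02%) or the direct repeat (0.0335%) in any of the 9. The CCAAT box was in 5 of the 9 (3 genes), the GC box in 5 (2 genes) and the TATA box in 3 (2 genes). Some Tox2 windows overlap, such as those before the starts at 163225453 and 163225454, so the 9 are not separate sequences. These matches describe letters in the windows and say nothing of binding.

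Frmd5 (ENSMUSG00000027238, chromosome 2, 121545529 to 121807087, minus strand) was alone among the 6 with no read in any WT library. It had 22, 27 and 59 counts in CREBH-K.O 1, 2 and 3, or 0.644, 0.913 and 1.81 CPM. The highest CREBH-K.O library was 2.80 times the lowest. Over the groups, 0 counts stood against 108, so Frmd5 was at least 37.9-fold higher in CREBH-K.O when 3 counts over the WT group are taken as the floor. That bound takes the CREBH-K.O counts as they stand. The exact 95% interval of the count ratio, which allows for their counting error too, began at 30.3. Those 3 counts correspond to 0.0296 CPM, so a WT level below that cannot be told apart from absence at this depth.

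Tcf24 (ENSMUSG00000099032, chromosome 1, 9960163 to 9967932, minus strand) was near absent in WT as well. It had 3, 2 and 8 counts in the WT libraries and 87, 227 and 208 in the CREBH-K.O libraries. The levels were 0.133 ± 0.110 CPM in WT and 5.53 ± 2.66 CPM in CREBH-K.O (SD, n = 3 each). CREBH-K.O 1 was the lowest of its group at 2.55 CPM, and this was still 9.79 times the highest WT library. The count ratio was 42.2 (95% exact interval 24.5 to 79.8, counting error only) and the fitted log2 fold change 5.38 ± 0.59 (SE). This and every other exact interval given here pools the reads of a group and leaves out the spread between libraries. Of its exonic bases, 14.8% lie inside exons of E330040D14Rik on the opposite strand, so with the strand setting of the counting unknown a part of its reads could not be assigned to it alone.

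Tox2 (ENSMUSG00000074607, chromosome 2, 163203125 to 163324170, plus strand) had 2, 13 and 15 counts in WT and 173, 143 and 126 in CREBH-K.O. The WT libraries were uneven, at 0.0517, 0.407 and 0.488 CPM, while the CREBH-K.O libraries were close together at 5.06, 4.83 and 3.86 CPM. The lowest CREBH-K.O library was 7.91 times the highest WT library. The log2 fold change was 3.90 ± 0.50 (SE), and the count ratio 15.5 (95% exact interval 10.7 to 23.2).

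Klhl33 (ENSMUSG00000090799, chromosome 14, 50888582 to 50897507, minus strand) was at 4, 2 and 1 counts in WT and at 42, 25 and 53 in CREBH-K.O. In CPM the libraries read 0.103, 0.0626 and 0.0325 against 1.23, 0.845 and 1.62. CREBH-K.O 2 was its lowest knockout library, at 8.17 times the highest WT library. The log2 fold change was 4.10 ± 0.52 (SE), with a count ratio of 18.0 (95% exact interval 8.48 to 45.8).

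Sybu (ENSMUSG00000022340, chromosome 15, 44671856 to 44788063, minus strand) had 5, 2 and 2 counts in WT and 48, 50 and 15 in CREBH-K.O. CREBH-K.O 3 stood apart at 0.459 CPM, against 1.40 and 1.69 CPM in CREBH-K.O 1 and 2, and the 3.68-fold spread within the knockout group was the widest of the 6 genes. Even so the groups did not overlap, the WT libraries reaching at most 0.129 CPM. The log2 fold change was 3.69 ± 0.63 (SE) and the count ratio 13.2 (95% exact interval 6.71 to 29.6). Of its exonic bases, 2.69% overlap A930017M01Rik on the opposite strand, which had 1 count over each group.

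Asic5 (ENSMUSG00000028008, chromosome 3, 81982290 to 82021233, plus strand) was not silent in WT liver. It had 386, 299 and 334 counts in WT, or 9.98, 9.36 and 10.9 CPM, and 1536, 1111 and 1224 counts in CREBH-K.O, or 45.0, 37.6 and 37.5 CPM. The groups read 10.1 ± 0.755 and 40.0 ± 4.30 CPM (SD, n = 3 each) and did not overlap. Asic5 therefore differs from the other 5 genes in kind: it was raised 3.97-fold from an established level (log2 fold change 1.99 ± 0.11, SE), and the description of a gene switched on does not hold for it.

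**Figure D1:**
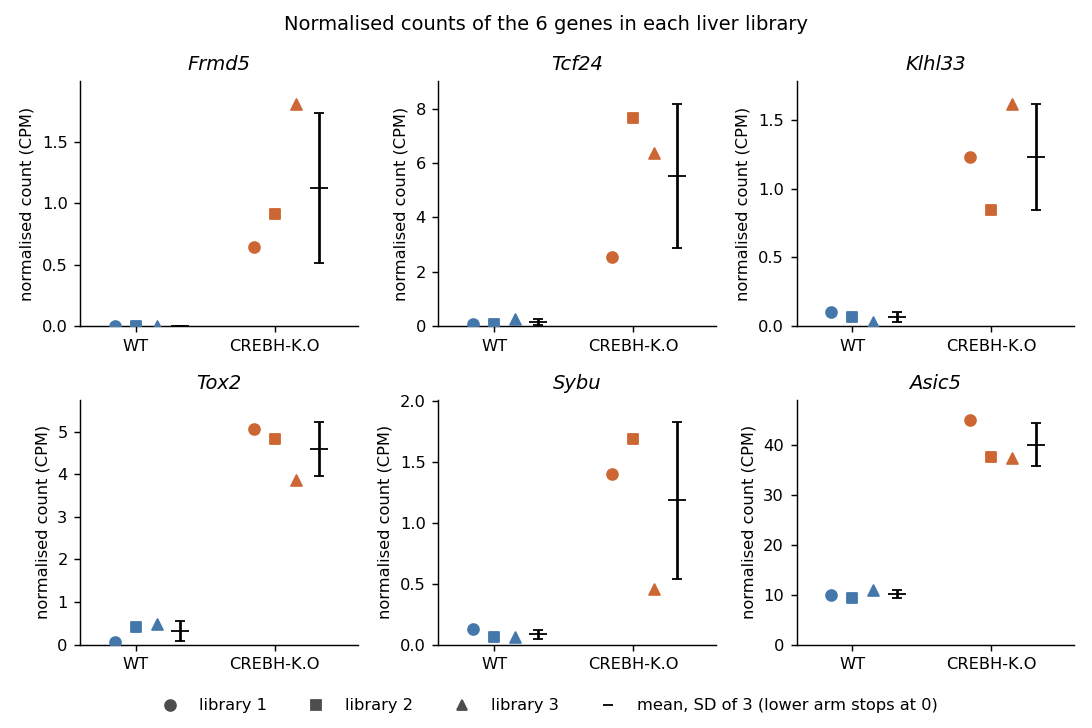
Normalised counts (CPM, linear axes starting at 0) of the 6 genes in the 3 WT (blue) and 3 CREBH-K.O (orange) libraries, with marker shapes for the libraries and black bars for mean and SD. All CREBH-K.O points lie above all WT points in each panel, the narrowest gap being that of Asic5 (3.45 times), and CREBH-K.O 3 is the low point for Sybu at 0.459 CPM.

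Levels were compared between the genes per kilobase of exon. In CREBH-K.O, Asic5 stood highest at 17.3 ± 1.86 CPM per kb (SD, n = 3), followed by Tox2 at 1.35 ± 0.189 and Tcf24 at 1.32 ± 0.635 CPM per kb. Tox2 and Tcf24 did not differ beyond their spread. Klhl33 (0.196 ± 0.0616), Sybu (0.154 ± 0.0837) and Frmd5 (0.149 ± 0.0806 CPM per kb) overlapped in their libraries too. Among all 15589 tested genes, Asic5 stood at percentile 63.6 of level per kilobase in WT and 87.0 in CREBH-K.O. Tox2 stood at 4.29 and 38.7, and Tcf24 at 0.667 and 38.2. Klhl33, Sybu and Frmd5 were low in CREBH-K.O too, at percentiles 9.38, 6.88 and 6.64.

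The 6 genes did not follow 1 order of the knockout libraries. Frmd5 and Klhl33 were highest in CREBH-K.O 3, Tcf24 and Sybu in CREBH-K.O 2, and Tox2 and Asic5 in CREBH-K.O 1. The gap between the groups is what chose the 6 genes, and the table as a whole gives its scale. The groups did not overlap in 30.6% of tested genes, with CREBH-K.O above in 2331 genes. Of the 15589 tested genes, 126 (0.808%) had their lowest CREBH-K.O library at least 2 times above their highest WT library, and 136 (0.872%) showed the mirror image with WT above. At 3 times the numbers were 50 and 56, with all 6 genes inside. At 4 times they were 30 and 35, with Sybu (3.55) and Asic5 (3.45) outside. Of the 850 tested genes under 0.5 CPM in every WT library, 82 were called higher and 1 lower. A gene below the filter's minimum in WT can pass only through CREBH-K.O, so that split was in part set by the filter.

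**Figure D2:**
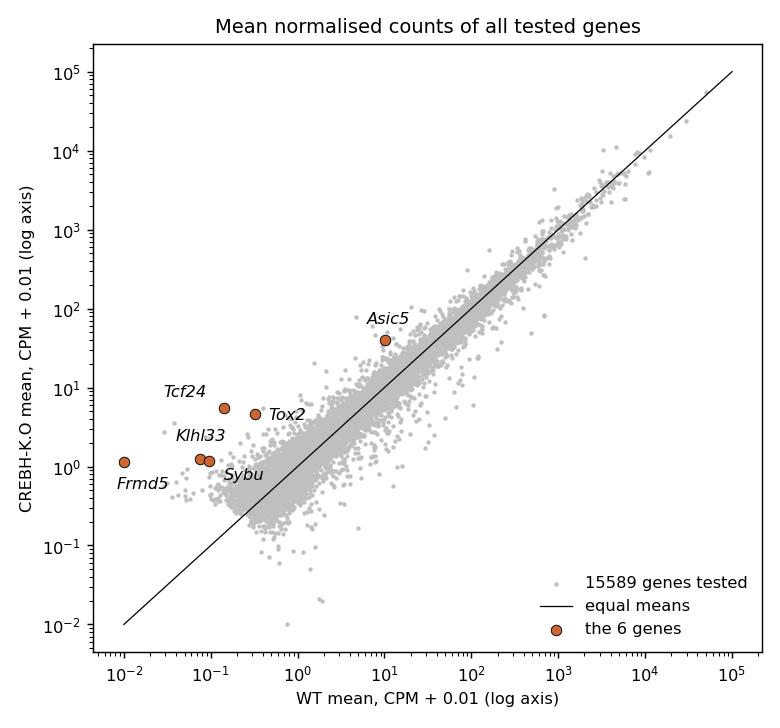
Mean normalised counts in WT (horizontal) and CREBH-K.O (vertical) of 15589 tested genes on log axes after adding 0.01 CPM, with the 6 genes in orange and a line of equal means. Frmd5 sits at the left edge with 0 CPM in WT, Klhl33, Sybu, Tcf24 and Tox2 lie between 0.0662 and 0.315 CPM in WT, and Asic5 lies above the body of genes at 10.1 CPM.

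Neighbouring genes were taken as the 3 nearest protein-coding genes on each side of each gene, at any distance, and every annotated gene overlapping it. This gave 40 genes, of which 5 had no count in any library and 28 were tested. The farthest tested were Trps1, 5866.7 kb from Sybu, and Pdgfc, 768 kb from Asic5. Of the 28, 3 rose and 1 fell (edgeR adjusted p under 0.05), or 14.3% beside 10.4% of all tested genes. Their log2 fold changes ran from -0.34 to 2.21 with a median of 0.14. Among the 74 tested genes that start within 500 kb, 3 rose and 5 fell, 10.8%. Both counts of risen genes include Jph2, which passed the low-count filter only through its CREBH-K.O counts. Jph2 was not called without that filter. The share called in either direction was thus close to that of the whole table, where 3.91% were called higher and 6.46% lower. Split by direction, the neighbours called are too few to compare with those shares, and untested genes are not in them. Some further genes in these windows had too few reads to be tested and were singled out after their values were seen. Gm11454, a noncoding RNA gene 59.2 kb from Tox2, had 0, 0 and 1 counts in WT and 14, 16 and 3 in CREBH-K.O. Vxn, 333 kb from Tcf24, had 0, 1 and 0 counts in WT and 6, 14 and 2 in CREBH-K.O. Tgm7, 436 kb from Frmd5, went the other way, with 4, 11 and 8 counts in WT and 1, 3 and 3 in CREBH-K.O.

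The Tcf24 locus held other genes with reads almost only in CREBH-K.O. Ppp1r42, which encodes a regulatory subunit of protein phosphatase 1, lies on the same strand as Tcf24 and ends 692 bases before the Tcf24 start. Ppp1r42 had 0 counts in all 3 WT libraries and 8, 22 and 10 counts in CREBH-K.O 1, 2 and 3, at least 14.0-fold higher by the same floor, with an exact 95% interval of the count ratio that began at 10.9. Both Ppp1r42 and Tcf24 were highest in CREBH-K.O 2 and lowest in CREBH-K.O 1, with 40 counts for Ppp1r42 over the group beside 522 for Tcf24. E330040D14Rik lies on the opposite strand and overlaps the start of Tcf24 and the end of Ppp1r42. It had 0 counts in WT and 1, 7 and 4 in CREBH-K.O. On the other side, 18.1 kb away, the meiosis gene Mcmdc2 had 3, 0 and 0 counts in WT and 1, 6 and 8 in CREBH-K.O, and the groups overlapped.

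None of these 3 genes passed the low-count filter. In the fit with no filter, 3.21% of 28923 genes were called higher. There Ppp1r42 rose (edgeR adjusted p = 1.24e-04) while E330040D14Rik (adjusted p = 0.0724) and Mcmdc2 (adjusted p = 0.334) did not pass. Adjusted p of that fit is not on the scale of the main fit. With the same counts it was far lower there for each of the 6 genes. For the Tox2 neighbour Jph2 it was higher (edgeR, 0.0540 beside 0.0265). With 1 library left out and the filter applied, Ppp1r42 could be tested in 4 of 6 fits and was called in 3, with adjusted p of 0.0182 to 0.0518, the highest without WT 2. Ppp1r42 passed the filter in those fits only through its CREBH-K.O counts. The next genes outward had similar levels in both groups and did not pass. Cops5, a subunit of the COP9 signalosome, was at 57.0 ± 1.36 CPM in WT and 58.0 ± 1.79 CPM in CREBH-K.O (SD, n = 3), and Cspp1, a centrosome gene, at 20.3 ± 2.19 and 21.7 ± 2.98 CPM. None of the 4 tested neighbours of Tcf24 was called by edgeR or DESeq2, and none had an unadjusted p under 0.05 (count of 0). Whether reads continuing past the end of Ppp1r42 enter the Tcf24 counts was not tested.

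The gene after Tox2 was called higher too, though it passed the low-count filter only through its CREBH-K.O counts and was not called without that filter. Jph2, a junctophilin that ties the plasma membrane to internal calcium stores in heart and muscle, lies on the opposite strand with its end 12.1 kb beyond the end of Tox2. It had 4, 3 and 2 counts in WT and 16, 9 and 16 in CREBH-K.O. The libraries did not overlap, at 0.0874 ± 0.0200 and 0.421 ± 0.101 CPM (SD, n = 3). The log2 fold change was 2.21 ± 0.51 (SE, edgeR adjusted p = 0.0265). This call rested on few reads: it was lost without any 1 of the 6 libraries (adjusted p of 0.0537 to 0.103) and with the filter dropped (adjusted p = 0.0540), while the log2 fold change remained between 2.05 and 2.39. The 8 skeletal muscle genes listed as markers summed to less than 1 CPM in each library. Oser1, the next gene, was at 12.6 and 14.2 CPM and did not pass (edgeR adjusted p = 0.471).

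**Figure D3:**
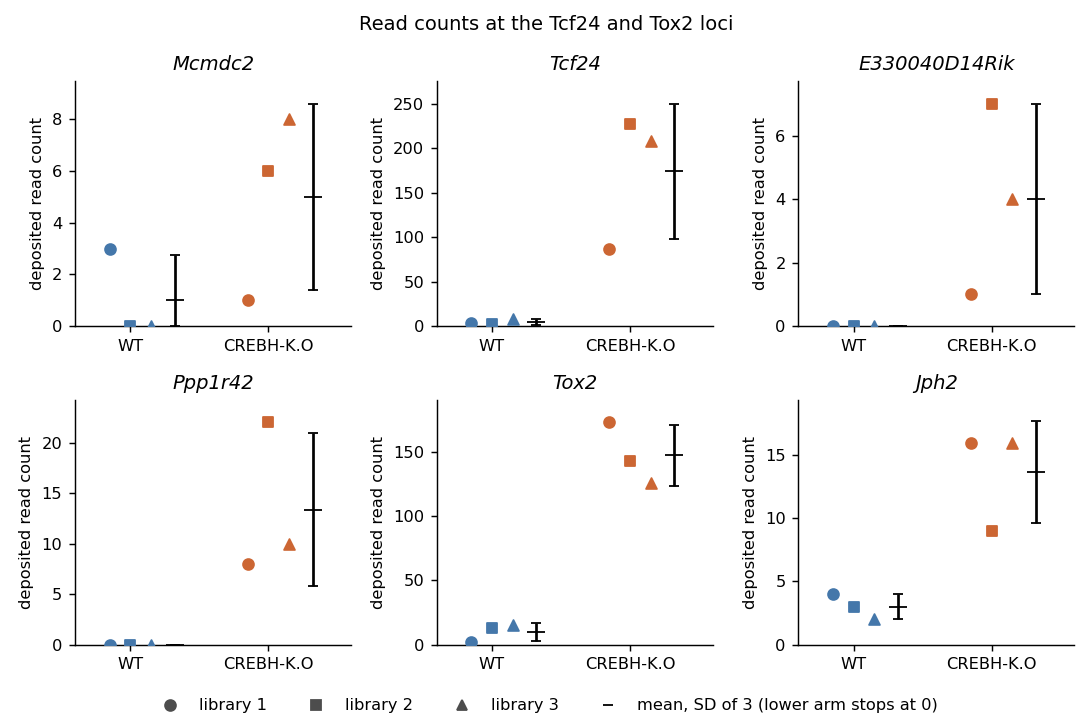
Deposited read counts per library (linear axes starting at 0) of Mcmdc2, Tcf24, E330040D14Rik and Ppp1r42 on chromosome 1 and of Tox2 and Jph2 on chromosome 2, WT in blue and CREBH-K.O in orange, with mean and SD. Ppp1r42 and E330040D14Rik have 0 counts in all WT libraries, and Jph2 lies between 2 and 4 counts in WT and between 9 and 16 in CREBH-K.O.

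Asic5 lies head to head with Tdo2, the tryptophan dioxygenase gene of hepatocytes, with 6.09 kb between the outermost annotated gene edges, not from the start whose promoter is printed. Tdo2 was among the abundant transcripts at 2440.3, 2595.8 and 2638.3 CPM in WT and rose to 3313.2, 3532.8 and 3325.2 CPM in CREBH-K.O. Its log2 fold change of 0.41 ± 0.09 (SE, edgeR adjusted p = 0.0227) stands beside 1.99 for Asic5. On the far side of Tdo2, the cathepsin gene Ctso fell: it read 49.8 ± 1.33 CPM in WT and 39.3 ± 3.05 CPM in CREBH-K.O (-0.34 ± 0.08, edgeR adjusted p = 0.0339). The guanylate cyclase gene Gucy1b1, 10.8 kb beyond Asic5, did not pass (0.77 ± 0.25, edgeR adjusted p = 0.0916). The call of Tdo2 was lost without WT 2, CREBH-K.O 2 or CREBH-K.O 3 (adjusted p up to 0.0915). That of Ctso was lost without WT 2, WT 3, CREBH-K.O 2 or CREBH-K.O 3 (adjusted p up to 0.123) and with scaling by library size alone (adjusted p = 0.0801).

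Around Klhl33, the DNA repair gene Parp2, 67.3 kb away, rose from 8.19 ± 0.432 to 11.7 ± 0.295 CPM (SD, n = 3). Its log2 fold change was 0.52 ± 0.12 (SE, edgeR adjusted p = 0.0242), and the call was lost without any 1 library except WT 1 (adjusted p up to 0.0948). The nearer genes Tep1 (-0.15) and Osgep (-0.27) did not pass. Wdr76 ends 669 bases from the end of Frmd5 on the opposite strand. It was at 1.42 ± 0.467 CPM in WT and 2.27 ± 0.457 CPM in CREBH-K.O and did not pass (0.68 ± 0.32, edgeR adjusted p = 0.224). None of the 5 tested neighbours of Frmd5 was called by edgeR or DESeq2, and 1 had an unadjusted p under 0.05. The 4 tested neighbours of Sybu also gave 0 calls by either tool. Their 1 unadjusted p under 0.05 was that of Trps1, which lies 5866.7 kb away. Among the 4 tested genes that start within 500 kb of Sybu, 0 had an unadjusted p under 0.05. Sybu's nearest coding gene Ebag9 was at 19.6 ± 2.17 and 18.8 ± 2.03 CPM.

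**Figure D4:**
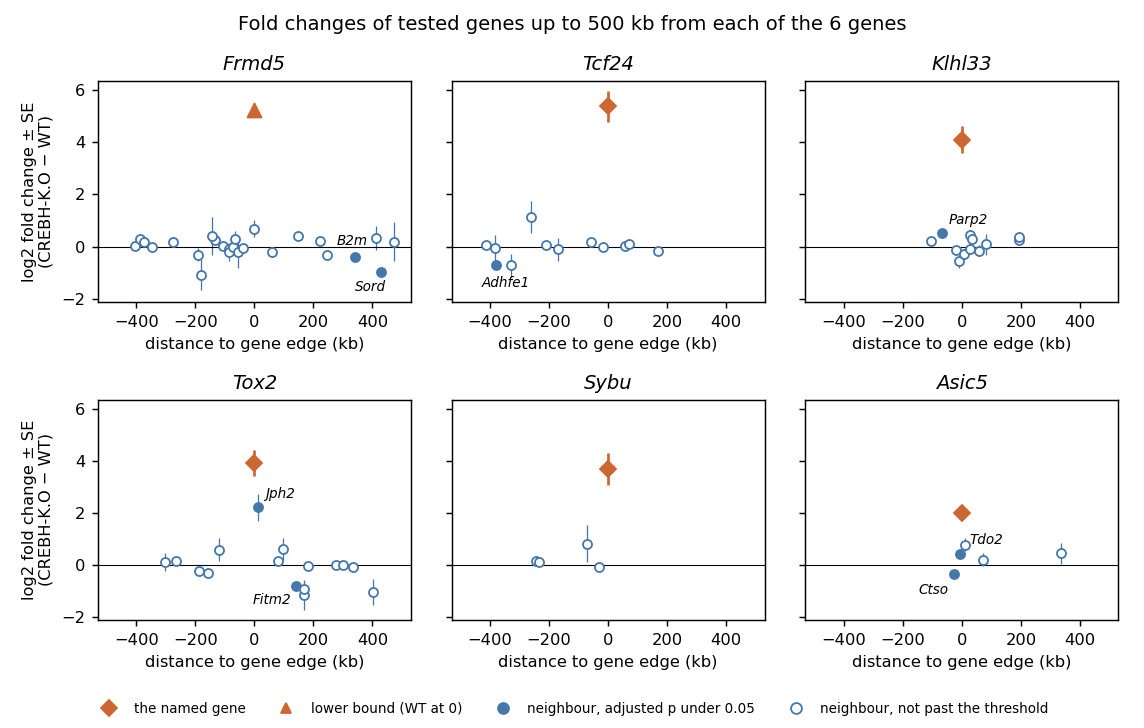
Log2 fold changes (CREBH-K.O minus WT, bars are SE) of tested genes up to 500 kb from each of the 6 genes, by distance between gene edges in kb, with filled points for adjusted p under 0.05. Each of the 6 genes (orange, Frmd5 as a lower bound because WT is at 0) lies above all its plotted neighbours, of which Jph2 at 2.21 is the highest called.

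Relatives of the 6 genes were examined with the genes themselves left out. Their calls are read beside 3.91% higher and 6.46% lower among all tested genes, and their median log2 fold changes beside 0.02. Of the other TOX family genes, Tox fell, opposite to Tox2. It read 9.83 ± 3.95 CPM in WT and 3.97 ± 0.764 CPM in CREBH-K.O (SD, n = 3), a log2 difference of -1.31 ± 0.28 (SE) with adjusted p = 0.0201 in edgeR. Its call was lost without CREBH-K.O 3 (adjusted p = 0.0773). Tox4 was at 30.9 and 31.9 CPM and did not pass (edgeR adjusted p = 0.803), and Tox3 had 5 counts over WT and 8 over CREBH-K.O.

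Tcf23, a basic helix-loop-helix factor related to Tcf24, had 2 counts in WT and 25 in CREBH-K.O in all, a ratio of 13.1 (95% exact interval 3.28 to 115). It did not pass the filter on low counts. With no filter it rose (edgeR adjusted p = 0.0384), and with 1 library left out it was called in 1 of the 4 fits that held it. Those 4 fits held it only through its CREBH-K.O counts, and adjusted p with no filter is not on the scale of the main fit. None of the 9 tested genes of the list of E proteins, Id proteins and related factors was called by edgeR or DESeq2, 2 having an unadjusted p under 0.05, and their median was 0.25. The E protein genes Tcf3 (-0.32 ± 0.10) and Tcf4 (0.33 ± 0.09, SE) came nearest (edgeR adjusted p = 0.0697 and 0.0569).

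The list of Kelch-like and CUL3 ligase genes had 27 tested members besides Klhl33. None rose and 3 fell: Klhl21 (-0.87), Klhl25 (-0.45) and Klhl2 (-0.35 on the log2 scale), beside 6.46% lower among all tested genes. The median was 0.02. The ligase gene Cul3 was at 60.5 ± 0.751 and 55.2 ± 0.627 CPM and did not pass (edgeR adjusted p = 0.281). Among 18 tested FERM domain genes and partners of FRMD5, 1 rose: Epb41l1, which encodes a membrane skeleton protein, from 2.39 ± 0.577 to 5.91 ± 2.52 CPM (log2 fold change 1.30, edgeR adjusted p = 0.0354). The p120-catenin gene Ctnnd1 (-0.05) and Rock1 (0.25) did not pass. These 4 calls depended on single libraries (adjusted p up to 0.129 without one). Those of Klhl21 and Epb41l1 were lost without WT 2, WT 3, CREBH-K.O 1 (0.0543 for Epb41l1) or CREBH-K.O 2, and that of Epb41l1 also with limma-voom (adjusted p = 0.0547). That of Klhl25 was lost without any library except WT 1, and that of Klhl2 without any except WT 3. Both were also lost when only library sizes were used for scaling (adjusted p = 0.0519 and 0.0795).

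For syntabulin, 11 genes of kinesin-1 transport were tested. The kinesin light chain gene Klc4 (-0.41) and the mitochondrial adaptor gene Trak1 (-0.44) fell, none rose and the median was -0.10. Both calls were lost without any 1 library except WT 1 and with scaling by library size alone (adjusted p of 0.0508 to 0.108). The motor gene Kif5b was at 59.6 ± 4.35 and 60.2 ± 0.917 CPM, and the syntabulin relative Snph had 5 counts over WT and 4 over CREBH-K.O.

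In the sodium channel family, Asic1 was at 2.46 ± 0.351 CPM in WT and 4.16 ± 0.612 CPM in CREBH-K.O (SD, n = 3). Its log2 fold change of 0.76 ± 0.21 (SE) missed the threshold (edgeR adjusted p = 0.0541) and passed in DESeq2 (adjusted p = 0.0221), with no filter (0.0423) and with scaling by library size alone (0.0404). Asic2 and Asic4 had at most 1 count in all. None of the 3 tested members was called by edgeR, and 1 had an unadjusted p under 0.05. Genes of bile acid synthesis, transport and sensing, which bear on the ligand of the ASIC5 channel, went down where they were called: of 21 tested, 5 fell and none rose, with a median of -0.41. Among all tested genes 6.46% fell and 3.91% rose. The oxysterol hydroxylase Cyp7b1 fell by 1.61 ± 0.28 on the log2 scale, with 176 ± 42.0 CPM in WT and 57.8 ± 22.5 CPM in CREBH-K.O (edgeR adjusted p = 0.00754). The sterol hydroxylase Cyp27a1 (-0.77), the organic anion transporter Slco1b2 (-0.63), the bile acid uptake carrier Slc10a1 (-0.50) and the basolateral exporter Abcc3 (-0.45) fell too. The call of Abcc3 was lost without WT 2, CREBH-K.O 2 or CREBH-K.O 3 (adjusted p up to 0.0777). Cyp7a1, the rate-limiting enzyme of bile acid synthesis, did not pass (-0.41 ± 0.43, edgeR adjusted p = 0.598).

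Of 14 tested genes known as female-biased in mouse liver, 4 rose and 2 fell, with a median of 0.33, beside 3.91% and 6.46% of all tested genes. The cytochrome gene Cyp2b9, whose close paralogs make its counts uncertain and which passed the filter only through CREBH-K.O, rose from 9 counts over WT to 227 over CREBH-K.O. The acyl-CoA thioesterase gene Acot3 rose by a log2 fold change of 1.28. The growth factor receptor Ntrk2 rose by a log2 fold change of 2.40 and Cyp17a1, a steroid hydroxylase, by 1.31. Besides Tox, the proton pump subunit Atp6v0d2 fell (-1.85). The call of Cyp17a1 was lost without WT 1, WT 2, CREBH-K.O 1 or CREBH-K.O 2, and that of Atp6v0d2 without WT 2, WT 3 or CREBH-K.O 3 (adjusted p up to 0.0853).

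**Figure D5:**
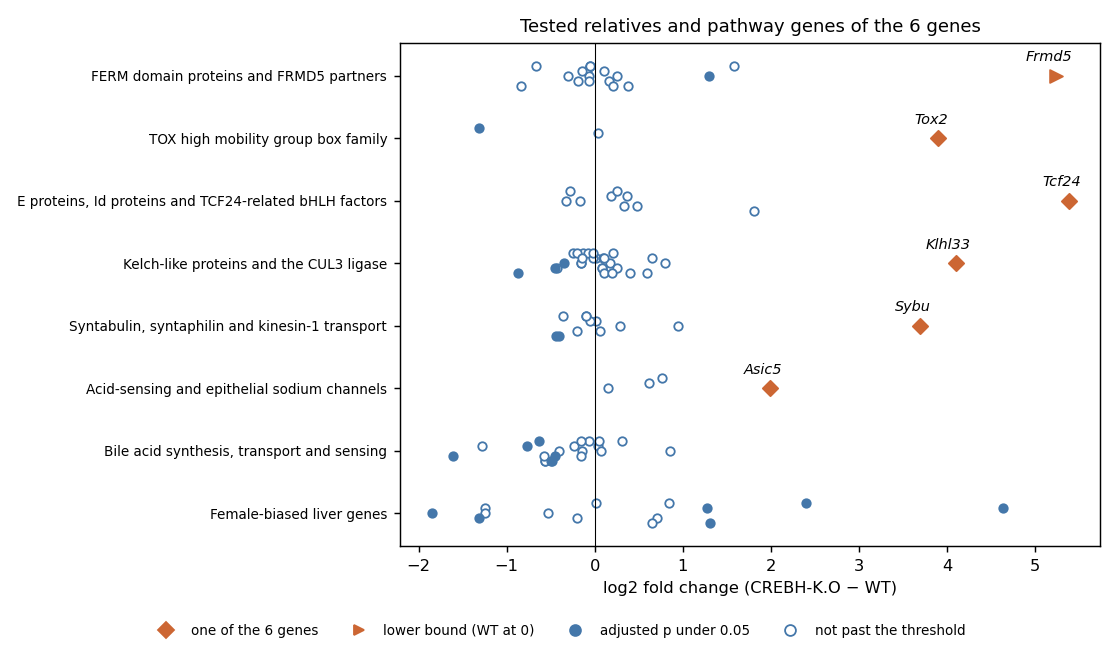
Log2 fold changes (CREBH-K.O minus WT) of tested genes in 8 lists of relatives and pathway genes, filled where the adjusted p was under 0.05, with the 6 genes in orange in the list each belongs to (Frmd5 as a lower bound). Tox lies at -1.31 and Epb41l1 at 1.30, the 6 genes lie between 1.99 and 5.38, and Cyp2b9 among the female-biased genes lies at 4.64.

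Markers of cells in which the 6 genes are better known were counted beside them. In bulk tissue, fewer or more cells of a type cannot be told apart from less or more RNA per cell. For Asic5, the summed level of 10 bile duct markers ranged from 58.0 to 107 CPM in WT and from 63.4 to 96.6 CPM in CREBH-K.O. Of 8 tested, Sox9 rose by 0.96 ± 0.23 on the log2 scale (edgeR adjusted p = 0.0312, up to 0.113 and lost without WT 1, WT 2, CREBH-K.O 1 or CREBH-K.O 2), while Krt19 (-0.35), Krt7 (0.04) and Epcam (-1.11) did not pass. For Tox2, 11 markers of T and NK cells summed to 2.51 to 6.21 CPM in WT and 3.70 to 6.50 CPM in CREBH-K.O, and none of 6 tested was called or had an unadjusted p under 0.05 (edgeR, 0 calls also in DESeq2).

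For Sybu, 9 neuronal and neuroendocrine markers summed to 9.79 to 11.7 CPM in WT and 6.93 to 7.96 CPM in CREBH-K.O. Of 3 tested, Syt1 fell (-0.63, lost without any library except WT 3, adjusted p up to 0.0977), and Snap25 had 1 count in all libraries together. For Jph2, 8 skeletal muscle markers summed to 0.344 to 0.983 CPM in WT and 0.913 to 0.995 CPM in CREBH-K.O, and 3 of the 8, including the muscle creatine kinase gene Ckm, had 0 counts. The 7 matched hepatocyte markers, which check the tissue, summed to 68583.2 to 81750.3 CPM in WT and 75822.7 to 83363.1 CPM in CREBH-K.O. None of the 7 was called by edgeR, 1 had an unadjusted p under 0.05 and 1 was called by DESeq2. Among the remaining lists, 1 of 8 stellate cell markers rose (Dcn, 0.56), with sums of 134 to 163 CPM in WT and 181 to 207 CPM in CREBH-K.O. Fabp2 (-2.34) fell among 6 intestinal epithelial markers, whose sums were 136 to 184 CPM in WT and 25.2 to 85.6 CPM in CREBH-K.O. Of 2 tested adipocyte markers Cfd was called lower by edgeR over all libraries. A log2 fold change of -8.88 was fitted for Cfd with CREBH-K.O 1 alone against WT. That size rests on 1 knockout library and is not the size over all libraries. Both tested adipocyte markers had an unadjusted p under 0.05 in edgeR over all libraries, and their median was -3.23. The adipocyte sums, 5.40 to 9.29 CPM in WT and 6.91 to 8.02 CPM in CREBH-K.O, did not follow the fall of Cfd.

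No marker of B cells (6 tested), Kupffer cells and macrophages (7), endothelium (7) or pancreatic acinar cells (2) was called by edgeR. In these 4 lists 0, 1, 3 and 0 markers had an unadjusted p under 0.05, and DESeq2 called 0, 1, 0 and 0. The Kupffer cell sums were 61.6 to 138 CPM in WT and 68.5 to 85.8 CPM in CREBH-K.O, the endothelial sums 117 to 158 and 135 to 140 CPM. B cell sums were 3.08 to 9.40 and 6.79 to 9.33 CPM, and acinar sums 7.40 to 7.48 and 6.12 to 6.64 CPM. None of the kidney tubule markers passed the filter on low counts, with at most 0.228 CPM in a library. The part that other cell types may have in the 6 genes' levels was not tested.

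Genes with the most similar course over the 6 libraries were found by the root mean square difference in log2(CPM + 0.5), centred per gene, among tested protein-coding genes. They were chosen for likeness in this same comparison and are given without a test. Adding 0.5 CPM shrinks the rise of genes below that level in WT, so near genes can differ much in fold change. Klhl33 rose 17.2-fold, beside 3.17-fold for Zfp868 and 3.07-fold for Serpina1e. Klhl33 had the closest matches: the zinc finger gene Zfp868 (0.11), Serpina1e (0.14), an antitrypsin gene with near-identical copies whose counts are therefore uncertain, and the chemokine receptor Cxcr4 (0.19). Zfp868 read 5.02, 6.16 and 4.75 CPM in WT and 17.0, 13.0 and 20.4 CPM in CREBH-K.O, with CREBH-K.O 2 lowest and CREBH-K.O 3 highest as for Klhl33. Frmd5 was closest to Mgp (0.23), a matrix protein gene, Cxcr4 (0.26) and Zfp868 (0.26).

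Asic5 was closest to the serine dehydratase-like gene Sdsl (0.14), the cystine transporter subunit Slc3a1 (0.17) and the respiratory complex assembly gene Lyrm7 (0.21). Slc3a1 was also near Tox2 (0.30), after Mmd2 (0.24) and the growth arrest gene Gadd45g (0.24). Sybu was closest to the asparagine synthetase Asns (0.20), the G protein regulator Rgs1 (0.22) and the tight junction gene Marveld3 (0.23). Asns read 21.8, 36.2 and 15.3 CPM in CREBH-K.O 1, 2 and 3, low in CREBH-K.O 3 as Sybu was. Tcf24 had no near match: Bmper (0.42), an extracellular regulator of bone morphogenetic proteins, Cdkn1a (0.43), the cell cycle inhibitor p21, and Havcr1 (0.51) came first. Among the 6 genes, the nearest pair was Frmd5 and Klhl33 (0.24) and the farthest Tcf24 and Sybu (1.07).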

How the data were processed

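Liver RNA of 3 WT and 3 CREBH-K.O samples was sequenced as paired-end reads. The authors deposited raw read counts per gene, made with HTSeq per the labels (sample titles). Aligner, genome build, HTSeq version and strand setting: not given in the sources used here. Each of the 55536 gene identifiers matched GENCODE M21 (GRCm38), which supplied symbols and positions. Reads that HTSeq assigned to no gene (27.4% to 31.2% of those listed) stayed out of library sizes and tests. The deposited counts went through edgeR 4.0.16 (R 4.3.3): filterByExpr (minimum count 10, minimum total 15), TMM scaling, and the quasi-likelihood test with Benjamini-Hochberg adjustment over 15589 genes, called under 0.05. Standard errors were taken as the size of the log2 fold change over the root of its F value. Level per kilobase uses the union of exons. DESeq2 1.42.0 and limma-voom (limma 3.58.1) were alternatives. Replicates differed beyond sampling noise (lowest chi-square per degree of freedom 18.8). As the labels name no separate mice, p-values measure the spread between these samples, which may be technical.

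The 6 genes, the 8 lists of relatives and pathway genes and the 13 lists of cell type markers were chosen with earlier results of these data known. Named are the 6 genes, Creb3l3, called or overlapping neighbours, up to 4 called genes per list, relatives and defining markers, and the 3 most similar genes of each of the 6. Further neighbours and relatives were named after their values were seen. In counts simulated for 15589 genes of this comparison, 64.2% of 67 genes given a 2-fold change were found. At 4-fold this was 79.1% of 67, and at 16-fold 92.4% of 66. False calls made up 5.42%. The changed genes were drawn only from those above a minimum mean level and started from their mean over all 6 libraries. These shares therefore do not cover genes near absent in WT.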

Additional observations from a re-analysis of the deposited data

How the results depend on the processing

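No paired analysis was possible because the labels give no replicate numbers shared by the genotypes. For the genes chosen on this contrast the refits are a description of size only. With 1 library left out, log2 fold changes ran from 5.06 to 6.21 for Tcf24, 3.81 to 4.57 for Klhl33, 3.34 to 4.37 for Tox2, 3.36 to 4.12 for Sybu and 1.90 to 2.04 for Asic5. When CREBH-K.O 1 alone, the only knockout library with no lost read file, was set against WT, the values were 4.23, 4.08, 4.01, 3.92 and 2.14, with its spread assumed to be that of WT. The number of genes higher in CREBH-K.O (609) ranged from 209 (without WT 2) to 659 with 1 library left out, and that of lower genes (1007) from 449 to 1147. Called neighbours ranged from 0 to 3 higher and from 0 to 1 lower. With CREBH-K.O 1 alone, 76 genes were higher and 152 lower, and 0 neighbours were called in either direction. Without a low-count filter, 929 were higher and 1527 lower. Scaling by library size alone left 0 lower neighbours, and taking every gene starting within 500 kb gave 5. Removing libraries lowers the number of samples, and the cause of other shifts was not tested. For 73 other named genes, 768 of 874 alternative fits stayed on the same side of the threshold, 102 lost a call, 4 gained one and 0 reversed. The 73 include genes not called in the main fit, which have no call to lose. The share that stayed therefore does not measure how stable the calls were. DESeq2 gave no adjusted p for Jph2. Depth limits the WT levels of Frmd5, Klhl33 and Sybu, which rest on 0 to 9 counts over the group.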

Other observations

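Among 2331 of 15589 tested genes with every CREBH-K.O library above every WT library, 5 with few WT counts were singled out after their values were seen. They stand for no gene group, and all 5 passed the low-count filter only through their CREBH-K.O counts. Other genes had a wider gap, such as Havcr1 with 2 counts over WT and 264 over CREBH-K.O. Stxbp5l, which encodes the syntaxin-binding protein tomosyn-2, had 0, 1 and 1 counts in WT and 21, 19 and 18 in CREBH-K.O, a count ratio of 30.5 (95% exact interval 8.07 to 258, counting error only). The neuronal sodium channel gene Scn2a had 1, 1 and 0 counts in WT and 26, 10 and 18 in CREBH-K.O, a ratio of 28.4 (7.49 to 240). Sytl5, a synaptotagmin-like Rab27 effector, had 0, 2 and 1 counts against 21, 9 and 12, a ratio of 14.7 (4.70 to 74.2). The small GTPase gene Rab38, known from melanosome transport, had 4, 3 and 2 counts in WT and 29, 27 and 22 in CREBH-K.O. The muscarinic receptor gene Chrm3 had 14, 5 and 3 counts in WT and 60, 77 and 50 in CREBH-K.O.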
